A study of Homo sapiens with 24 samples.

Results

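The genes that build cholesterol and fatty acids from acetyl-CoA were followed across 8 groups of T-47D cells, a luminal, oestrogen receptor-positive human breast cancer line. The list was set by gene name as 31 genes of the mevalonate branch, the steps from squalene to cholesterol, palmitate synthesis, fatty acid elongation and desaturation, and their regulators. Of these, 28 were read by a probe set of their own, out of 18374 genes with such a probe set on the array; FDFT1, ACSL3 and HSD17B7 were not analysed here, because no probe set carried their symbol alone.

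The study silenced P-Rex1, a guanine nucleotide exchange factor for the small GTPase Rac that acts downstream of ErbB receptors, and asked which responses to the ErbB3 and ErbB4 ligand heregulin (HRG) change with it. Cells transfected with P-Rex1 RNAi duplex #1, P-Rex1 RNAi duplex #2 or a non-target control duplex (NTC), and parental cells without a duplex, were all serum-starved and then given HRG (20 ng/ml) or PBS as vehicle, with RNA taken after 6 h. Each of the 8 groups had 3 replicates, and each of the 24 samples was hybridised to 1 Affymetrix whole-transcript gene array. All samples came from 1 cell line, and silencing lowered PREX1 without removing it.

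Cholesterol is made from acetyl-CoA through mevalonate, farnesyl diphosphate, squalene and lanosterol, and long-chain fatty acids are made from the same precursor through malonyl-CoA and palmitate. The transcription factors encoded by SREBF1 and SREBF2 are held in the endoplasmic reticulum when sterols are plentiful, and switch on most enzymes of both routes when sterols run low. In general, SREBF2 leans towards the sterol genes and SREBF1 towards the fatty acid genes, and growth factor signalling through PI3K and Akt is known to raise the activity of both.

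The deposited values are log2 RMA intensities, so a difference of 1 is a change of 2-fold; every level and difference below is on that scale, and levels of different genes are not set against each other. Tests were limma contrasts over 21042 probe sets with a gene symbol, with Benjamini-Hochberg adjustment over all of them, and a member is called higher or lower at an adjusted p under 0.05. PREX1 lay between 8.91 and 9.09 in the vehicle arrays of duplex #1 and between 8.97 and 9.03 in those of duplex #2, against 10.36 to 10.63 in the 6 vehicle arrays of NTC and parental cells. The difference from controls was −1.52 for duplex #1 and −1.51 for duplex #2, so both duplexes lowered the target to a like degree without HRG. HRG itself lowered PREX1 by 0.97 in NTC cells and by 1.05 in parental cells. Among HRG-treated cells, the difference of PREX1 from controls was −0.97 for duplex #1 and −0.77 for duplex #2. All 10 luminal epithelial markers and all 28 members lay above the array median in every array, while 0 of 5 adipocyte and 0 of 4 leukocyte markers did, and of 6 fibroblast markers COL1A1 alone did. The luminal markers were not constant under HRG. In NTC and in parental cells ESR1 (−1.09 and −0.98), PGR (−0.82 and −0.79) and ERBB3 (−0.75 and −0.77) were called lower. KRT18 (0.39 and 0.27) and EPCAM (0.19 and 0.32) were called higher in both. The labels call the replicates biological, and the p-values measure the spread between them. With HRG, LUM of the fibroblast markers was called higher in all 4 cell groups (0.58 in NTC and 0.85 in parental cells) and COL1A1 in NTC cells (0.26), COL1A2 was lower with duplex #1 (−0.19), and the adipocyte marker ADIPOQ was lower in NTC and parental cells (−0.44 and −0.40) and with duplex #2 (−0.28). The log2 of the summed intensity of the 6 fibroblast markers was 8.83 to 9.07 in the 6 HRG control arrays, against 8.63 to 8.73 in the 6 vehicle control arrays; for the 5 adipocyte markers it was 7.30 to 7.48, against 7.41 to 7.60. Their part in the HRG results was not tested.

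Because SREBF2, HMGCS1, MVD, STARD4 and INSIG1 stand for the regulator, the sterol genes that responded to HRG and the feedback gene that did not rise, short stretches upstream of their start sites are shown from RefSeq promoters (GRCh38.p14), each written 5′ to 3′ on the strand of the gene. Capitals mark matches to 3 motifs searched on both strands of the 250 bases before each start site: TCACNCCAC, a core of the sterol regulatory element, CCAAT (or ATTGG on the other strand), the box bound by NF-Y, and CACGTG, an E-box.
SREBF2, chr22:41832965-41833015, plus strand: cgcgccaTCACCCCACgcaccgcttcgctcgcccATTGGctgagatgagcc
HMGCS1, chr5:43313497-43313577, minus strand: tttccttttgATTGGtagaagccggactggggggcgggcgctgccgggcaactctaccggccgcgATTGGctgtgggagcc
MVD, chr16:88663166-88663256, minus strand: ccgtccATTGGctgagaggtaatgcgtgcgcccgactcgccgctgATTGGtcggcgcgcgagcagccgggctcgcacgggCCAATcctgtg
STARD4, chr5:111512650-111512705, minus strand: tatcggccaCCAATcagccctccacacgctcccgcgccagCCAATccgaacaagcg
INSIG1, chr7:155297793-155297843, plus strand: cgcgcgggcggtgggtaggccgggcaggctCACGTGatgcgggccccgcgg

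Of the 28 measured members, 25 had a promoter window in the table (SQLE, FASN and ACAT2 did not). CCAAT was found in 19 of these 25, against 40.2% of 15843 protein-coding genes with a window. INSIG1 was among the 19, with its CCAAT match at −170 from the start site, outside the stretch shown. In SREBF2 CCAAT lay next to the only match to TCACNCCAC among the members, a motif found in 1.19% of coding genes. CACGTG occurred in ELOVL5, INSIG1 and SC5D, against 9.73% of coding genes. A match is a run of letters and not a bound site, and the motifs were chosen with the expression values known.

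In NTC and parental cells, 6 h of HRG raised some members and lowered others. The share raised was above that of all probe sets tested in both. The share lowered was under it in NTC cells and near it in parental cells. The same 8 members were called higher in both: HMGCS1, FDPS, MVD, SQLE, CYP51A1, STARD4, ELOVL5 and ELOVL6. In NTC cells 8 of 28 members (28.6%) were higher and 2 (7.14%) lower, against 13.6% higher and 17.6% lower among all probe sets tested. In parental cells 8 (28.6%) were higher and 6 (21.4%) lower, against 13.5% higher and 17.3% lower. The median difference over the 28 members was 0.03 in NTC cells and −0.02 in parental cells, with 0.03 and −0.03 over all probe sets tested, close to the members' medians. Most effects were small. Past 1.5-fold, 0 members were higher in NTC cells (2.64% of all tested) and ELOVL6 alone in parental cells (2.86%).

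**Figure D1:**
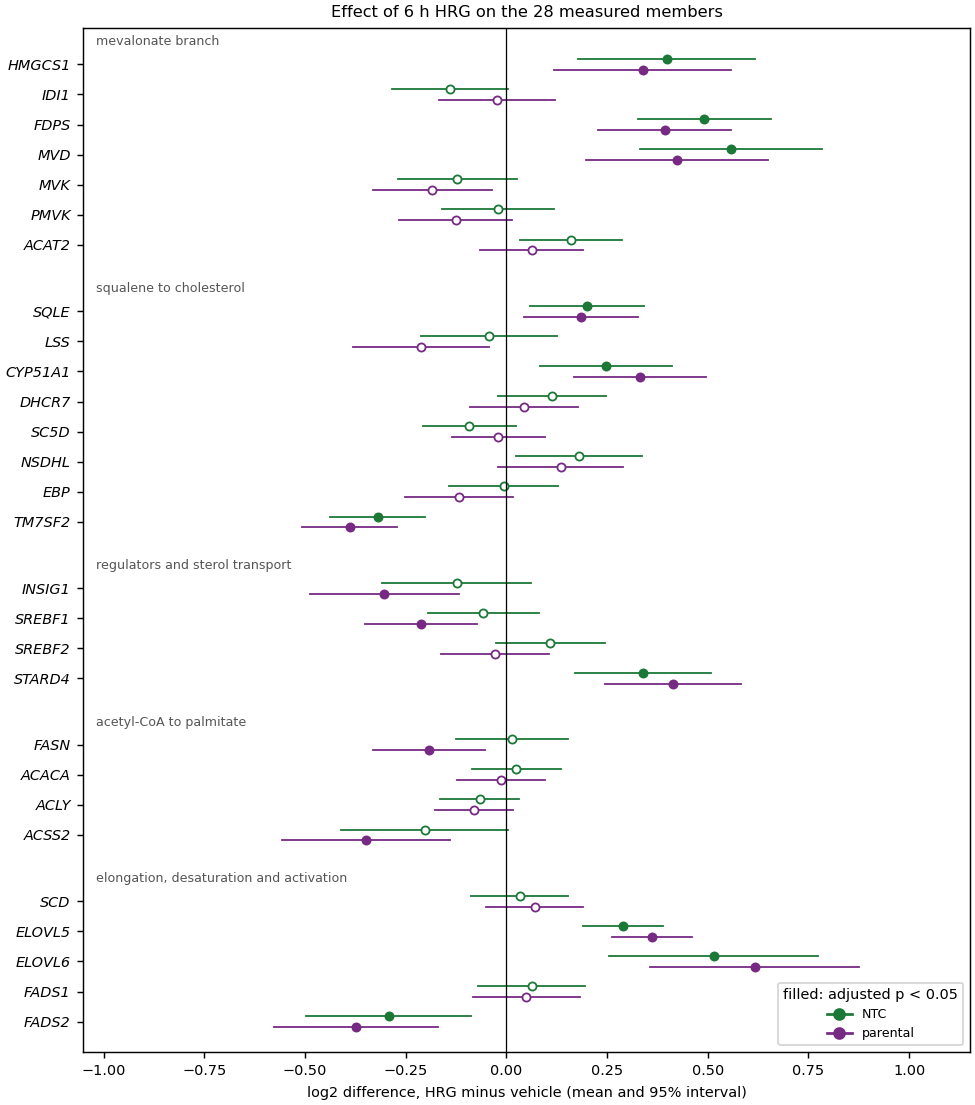
Log2 difference between HRG and vehicle (x axis) for each of the 28 measured members (y axis, ordered by role) in NTC cells (green, upper point) and parental cells (purple, lower point); bars are 95% intervals and filled points have an adjusted p under 0.05. The points of HMGCS1, FDPS, MVD, CYP51A1, SQLE, STARD4, ELOVL5 and ELOVL6 are filled to the right in both cell groups, and those of TM7SF2 and FADS2 to the left.

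The mevalonate branch moved at 3 of its 7 measured steps. MVD, the decarboxylase that makes isopentenyl diphosphate, read 9.86, 9.99 and 9.87 in NTC cells with HRG, against 9.31, 9.44 and 9.30 with vehicle. In parental cells it read 9.62, 9.87 and 9.98 with HRG, against 9.37, 9.42 and 9.41 with vehicle. Each HRG array was above each vehicle array, and the difference was 0.56 ± 0.11 in NTC cells and 0.42 ± 0.11 in parental cells (SE, n = 3 arrays a group; limma adjusted p = 0.000321 and 0.00415). FDPS, which joins isoprenoid units into farnesyl diphosphate, stood at 10.17, 10.35 and 10.25 in HRG-treated NTC cells, against 9.74, 9.73 and 9.83 with vehicle. Its parental arrays stood at 10.02, 10.11 and 10.31 with HRG, against 9.68, 9.77 and 9.81 with vehicle. HRG raised FDPS 1.41-fold in NTC cells and 1.31-fold in parental cells, again with no overlap between the arrays.

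HMGCS1, the cytosolic synthase that feeds the pathway and whose upstream stretch is printed above, had 11.20, 11.30 and 11.42 with HRG in NTC cells, against 10.89, 10.91 and 10.93 with vehicle. In parental cells the HRG arrays were more spread, at 10.95, 11.13 and 11.47, against 10.88, 10.93 and 10.72 with vehicle. The lowest HRG array sat only just above the highest vehicle array there, and the difference of 0.34 ± 0.11 had an adjusted p of 0.0173 in the limma fit, against 0.40 ± 0.11 in NTC cells. The other measured members of this branch were not called in either cell group. ACAT2, the thiolase at its head, had a difference of 0.16 in NTC cells with an adjusted p of 0.0502 (limma), and 0.06 in parental cells. The kinases MVK and PMVK and the isomerase IDI1 had differences between −0.18 and −0.02.

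Between squalene and cholesterol, SQLE and CYP51A1 rose and TM7SF2 fell. Squalene epoxidase (SQLE) ranged between 11.67 and 11.95 in the 6 HRG arrays of NTC and parental cells, with a median of 11.82, against 11.57 to 11.67 and a median of 11.66 in the 6 vehicle arrays. The gain was 0.20 in NTC cells and 0.18 in parental cells, and the lowest HRG array lay just under the highest vehicle array. CYP51A1, the lanosterol demethylase, ranged between 10.53 and 10.88 with HRG (median 10.70), against 10.34 to 10.54 with vehicle (median 10.39). It gained 0.25 in NTC cells and 0.33 in parental cells.

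TM7SF2, a sterol reductase of the endoplasmic reticulum, went the other way and did so with little spread. Its values were 9.69, 9.71 and 9.68 in NTC cells with HRG, against 10.01, 10.01 and 10.01 with vehicle. In parental cells they were 9.68, 9.73 and 9.78 with HRG, against 10.14, 10.14 and 10.07 with vehicle. TM7SF2 fell 1.25-fold in NTC cells and 1.31-fold in parental cells (limma adjusted p = 0.000118 and 1.25e-05). The remaining members here were not called: LSS, NSDHL, EBP, SC5D and DHCR7 had differences between −0.21 and 0.18 across both cell groups, and LSS, lanosterol synthase, came nearest to a call in parental cells (−0.21, adjusted p = 0.0519, limma).

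STARD4, a cytosolic carrier of cholesterol, rose, while the regulators of the pathway did not. It measured 9.28, 9.45 and 9.51 in NTC cells with HRG, against 9.10, 9.05 and 9.07 with vehicle. Parental cells gave 9.17, 9.31 and 9.43 with HRG, against 8.87, 8.95 and 8.84 with vehicle. The difference was 0.34 ± 0.08 in NTC cells and 0.41 ± 0.08 in parental cells, with no overlap. SREBF1 read 8.10, 8.14 and 8.14 in HRG-treated NTC cells, against 8.22, 8.19 and 8.15 with vehicle, and 7.97, 7.96 and 8.05 in HRG-treated parental cells, against 8.16, 8.20 and 8.26 with vehicle. Each HRG array was thus below each vehicle array, and SREBF1 was called lower in parental cells (−0.21, adjusted p = 0.0173) and not in NTC cells (−0.06, adjusted p = 0.57, limma).
SREBF2, which carries the sterol element match shown above, ranged between 9.19 and 9.44 in the 6 HRG arrays, against 9.25 to 9.35 in the 6 vehicle arrays, and was called in neither cell group. INSIG1, which retains the SREBF-encoded factors in the endoplasmic reticulum, was called lower in parental cells (−0.30 ± 0.09), where it read 9.46, 9.55 and 9.88 with HRG, against 9.97, 9.93 and 9.90 with vehicle. In NTC cells it read 9.75, 9.88 and 10.04 with HRG, against 9.98, 10.00 and 10.06 with vehicle, and the groups overlapped.

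Of the genes that make acetyl-CoA or turn it into palmitate, 0 of 4 were called higher. ACSS2, which makes acetyl-CoA from acetate, read 9.42, 9.57 and 9.68 in NTC cells with HRG, against 9.70, 9.69 and 9.88 with vehicle. Parental cells showed 9.43, 9.33 and 9.57 with HRG, against 9.73, 9.78 and 9.86 with vehicle. The 6 HRG arrays were all below the 6 vehicle arrays, and ACSS2 was called lower in parental cells (−0.35) but not in NTC cells (−0.20, adjusted p = 0.138, limma). FASN, the fatty acid synthase, was lower in parental cells by 0.19 ± 0.07 and had a difference of 0.01 ± 0.07 in NTC cells. The difference between those effects was 0.21 with a 95% interval of 0.01 to 0.40 and an adjusted p of 0.603 (limma). ACLY and ACACA had differences between −0.08 and 0.02.

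The elongases rose. ELOVL6, which lengthens palmitate to stearate, had 8.58, 8.72 and 9.04 in NTC cells with HRG, against 8.22, 8.10 and 8.48 with vehicle. Parental cells had 8.56, 8.65 and 8.89 with HRG, against 8.15, 8.06 and 8.04 with vehicle. This was the largest HRG effect among the members in parental cells, at 1.53-fold, with 1.43-fold in NTC cells. ELOVL5, an elongase of polyunsaturated fatty acids, was tighter: 12.17, 12.20 and 12.20 in NTC cells with HRG, against 11.91, 11.87 and 11.91 with vehicle. In parental cells it stood at 12.17, 12.17 and 12.22 with HRG, against 11.89, 11.79 and 11.79 with vehicle. The gain was 0.29 ± 0.05 in NTC cells and 0.36 ± 0.05 in parental cells.
The desaturases did not follow the elongases. FADS2, the front-end desaturase that starts the conversion of linoleate, read 9.18, 9.29 and 9.46 in NTC cells with HRG, against 9.58, 9.50 and 9.73 with vehicle, and 9.17, 9.10 and 9.33 in parental cells with HRG, against 9.50, 9.59 and 9.63 with vehicle. It fell by 0.29 in NTC cells and by 0.37 in parental cells. SCD, which puts a double bond into stearate, and FADS1, which acts after FADS2, had differences between 0.03 and 0.07 and were not called.

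**Figure D2:**
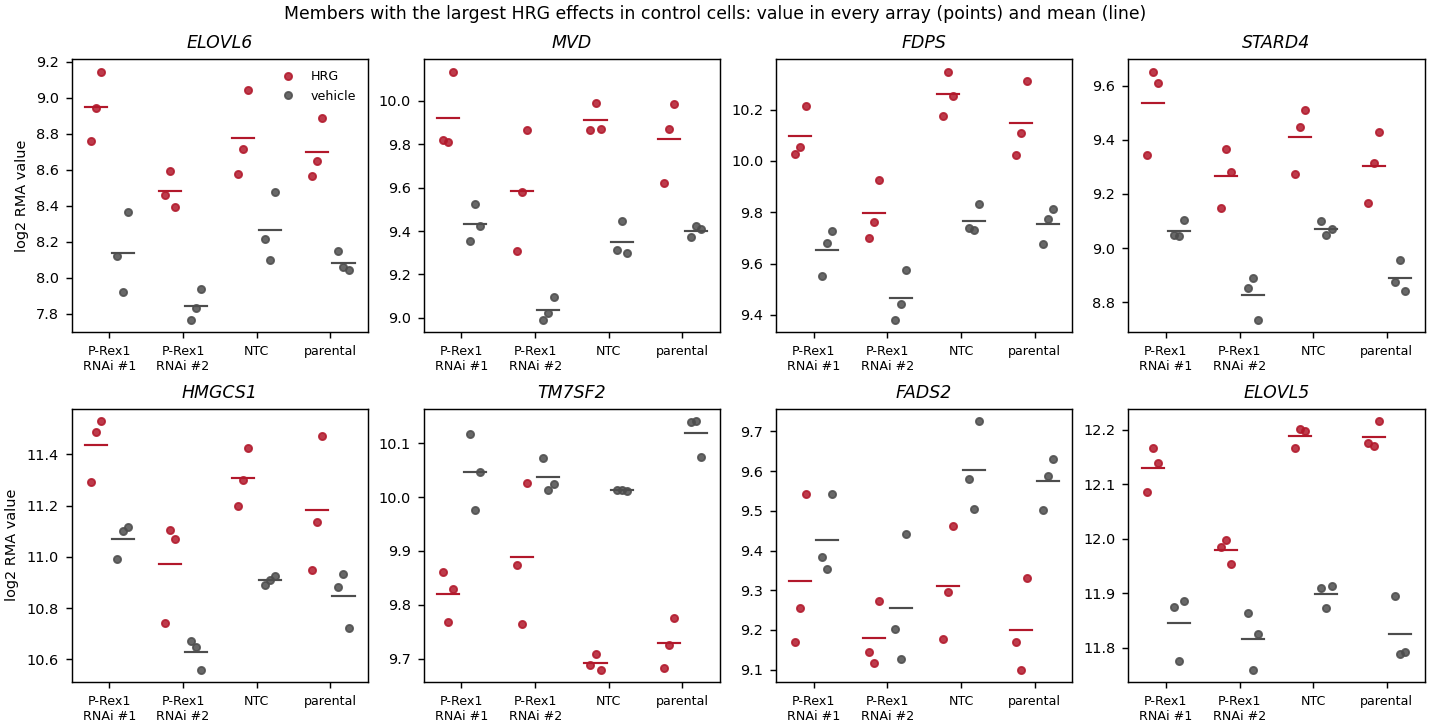
Log2 RMA value (y axis) in every array for the 8 members with the largest HRG effects in NTC and parental cells, by cell group (x axis), with HRG (red) left of vehicle (grey); lines are means of 3 arrays. In NTC and parental cells the red points of ELOVL6, MVD, FDPS, STARD4, HMGCS1 and ELOVL5 lie above the grey points and those of TM7SF2 and FADS2 below. The grey mean of duplex #2 is the lowest of the 4 cell groups for each member shown except TM7SF2.

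Set over all 12 control arrays, 6 members were higher in every HRG array than in every vehicle array (HMGCS1, FDPS, MVD, ELOVL5, ELOVL6 and STARD4) and 4 were lower (TM7SF2, SREBF1, ACSS2 and FADS2). Among all probe sets tested, 11.7% were separated upwards and 14.4% downwards. For a separated member the exact permutation test of 6 against 6 arrays, which ignores the cell group, gives p = 0.00216, two-sided and unadjusted. That is the smallest it can give, so it follows from the separation and adds nothing to it. In the direct test of the difference between NTC and parental cells, 0 of 28 members differed in HRG effect by limma (0.0% of all tested in either direction), with 1 at an unadjusted p under 0.05. Without HRG, 0 members were called higher and 0 lower in NTC cells than in parental cells by limma (0.00475% of all tested in each direction), with 1 at an unadjusted p under 0.05. Of all 21042 probe sets, 1727 for the HRG effect and 1203 without HRG were under that unadjusted p. The count of members lowered in parental cells was the least settled of these: 3 without parental HRG replicate 1 and 2 without parental HRG replicate 2. In NTC cells 1 of the 2 lower calls was lost without NTC vehicle replicate 1 or 3 or NTC HRG replicate 1 or 2.

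In cells with P-Rex1 silenced, 7 of the 8 members raised by HRG in both control groups were called higher with either duplex. With duplex #1, 11 of 28 members were higher with HRG (14.9% of all tested) and 1, TM7SF2, was lower (12.4%). With duplex #2, 9 were higher (8.2%) and 0 were lower by limma (7.64%), with 1 lower at an unadjusted p under 0.05. At that p, 5519 of all 21042 probe sets were higher or lower. The 7 were HMGCS1, FDPS, CYP51A1, MVD, ELOVL5, ELOVL6 and STARD4. SQLE was called with duplex #2 (0.23) and not with duplex #1 (0.14, adjusted p = 0.133). Of the pair lowered in both control groups, TM7SF2 was called with duplex #1 (−0.23) and not with duplex #2 (−0.15, adjusted p = 0.0857), and FADS2 with neither (−0.10 and −0.08, adjusted p = 0.465 and 0.721, limma). Duplex #1 added NSDHL, SCD, ACAT2 and FADS1, and duplex #2 added DHCR7, without a test of those differences between duplexes. ELOVL6 was the single member past 1.5-fold with either duplex, against 2.52% of all tested for duplex #1 and 1.07% for duplex #2. It measured 8.76, 8.95 and 9.15 with HRG in duplex #1 cells, against 8.12, 7.92 and 8.36 with vehicle, and 8.46, 8.60 and 8.39 with HRG in duplex #2 cells, against 7.77, 7.83 and 7.94 with vehicle.
MVD gained 0.49 with duplex #1 and 0.55 with duplex #2, and FDPS gained 0.45 and 0.33. For duplex #2, same-numbered HRG and vehicle arrays deviated together, and with the replicate number as a block 15 members were higher, DHCR7 and SQLE among them together with ACAT2, FADS1, NSDHL, SCD, SREBF1 and SREBF2, against 10.0% of all probe sets tested in the same fit. Without the block, the count of 9 became 4 without duplex #2 vehicle replicate 2 and 5 without duplex #2 HRG replicate 3.

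Whether silencing changed the response was tested as the HRG effect in silenced cells minus the mean effect in NTC and parental cells. For duplex #1, 0 members differed by limma (0.718% of all tested higher and 0.442% lower), with 3 higher and 0 lower at an unadjusted p under 0.05. For duplex #2, SREBF1 alone differed upwards (2.1% of all tested) and 0 members downwards by limma (1.85%), with 7 higher and 1 lower at an unadjusted p under 0.05. Of all 21042 probe sets, 3973 with duplex #1 and 3290 with duplex #2 were under that unadjusted p, in either direction. The change was above 0 for 22 of 28 members with duplex #1 and for 24 of 28 with duplex #2. The medians were 0.10 and 0.09, against 0.01 and 0.00 over all probe sets tested. Of 23 neighbouring sterol and lipid genes, taken up below, 19 were above 0 with each duplex, with medians of 0.13 and 0.11. Both comparisons used the same control arrays, and the vehicle arrays of each duplex enter its change with a minus sign. SREBF1 measured 8.14, 8.11 and 8.41 with HRG in duplex #2 cells, against 8.04, 8.01 and 8.10 with vehicle. Its effect was 0.17 there, against −0.06 in NTC cells and −0.21 in parental cells, and the difference was 0.31 ± 0.08 (limma adjusted p = 0.0348). Without duplex #2 HRG replicate 3, the highest of those arrays, the count of changed members was 0, and so it was when parental vehicle replicate 2 or 3, parental HRG replicate 2, NTC vehicle replicate 1 or 2, NTC HRG replicate 1 or duplex #2 vehicle replicate 1 or 2 was left out. For ELOVL6, MVD and HMGCS1 the change of the HRG effect with duplex #2 was 0.07, 0.06 and −0.02, and the 95% interval for HMGCS1 ran from −0.29 to 0.25, so changes within that range were not resolved.

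Without HRG, the duplexes differed from each other. With duplex #2 the members lay lower as a set: 27 of 28 differences from NTC and parental cells were below 0, PMVK being the exception at 0.04, and the median was −0.18, against 0.01 over all probe sets tested. 8 members (28.6%) were called lower and 0 higher by limma, against 2.59% lower and 0.756% higher among all tested; at an unadjusted p under 0.05 it was 20 lower and 0 higher. With duplex #1 the median was 0.00, and 0 members were called higher or lower by limma (0.0428% and 0.623% of all tested), with 1 higher and 0 lower at an unadjusted p under 0.05. Of all 21042 probe sets, 2885 with duplex #2 and 2491 with duplex #1 were under that unadjusted p, in either direction. The members' median shift was −0.16, −0.23 and −0.12 in the 3 vehicle arrays of duplex #2, −0.01, −0.01 and 0.05 in those of duplex #1, and between −0.01 and 0.03 in the 6 control vehicle arrays. The difference in PREX1 itself between duplex #2 and duplex #1 was 0.01, with a 95% interval of −0.15 to 0.16.
Markers of other cell types were read in the same comparison. Of 6 fibroblast markers LUM alone was called with duplex #2, where it averaged 5.16, against 6.40 in NTC and 6.49 in parental cells (−1.29; limma adjusted p = 1.46e-07), and with duplex #1 none of the 6 was called (LUM −0.05). The log2 of the summed intensity of the 6 markers was 8.44 to 8.47 with duplex #2 and 8.65 to 8.91 with duplex #1, against 8.63 to 8.73 in the 6 control arrays. The fibroblast marker DCN lay between 3.14 and 3.64 in all 24 arrays, below the 25% quantile of each array (4.27 to 4.43). Of 4 leukocyte and 5 adipocyte markers 0 were called with duplex #2, with 0 and 1 higher at an unadjusted p under 0.05. Of 10 luminal markers KRT8 (0.14) and KRT18 (0.31) were called higher and 0 lower by limma. At an unadjusted p under 0.05, 3 of the 10 were higher and 2 lower. The part of all these markers in the lower level of the members was not tested.

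**Figure D3:**
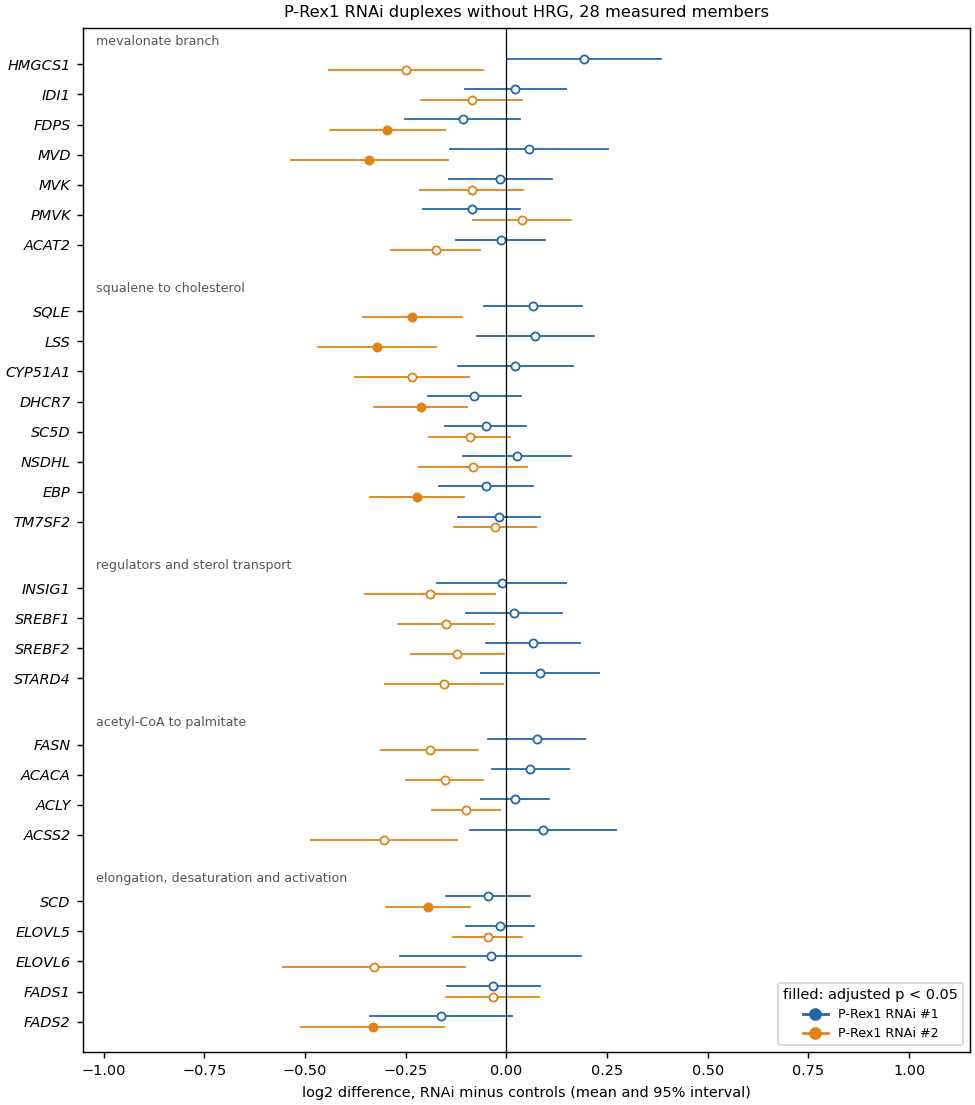
Log2 difference from NTC and parental cells without HRG (x axis) for each of the 28 measured members (y axis, ordered by role) with P-Rex1 RNAi #1 (blue, upper point) and P-Rex1 RNAi #2 (orange, lower point); bars are 95% intervals and filled points have an adjusted p under 0.05. The orange points lie left of 0 for 27 members, with 8 filled, and the blue points scatter around 0 with none filled.

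The members called lower with duplex #2 came from both routes. LSS read 9.67, 9.60 and 9.74 with duplex #2, against 9.92 to 10.09 in the 6 control arrays, a 1.25-fold lower level (limma adjusted p = 0.0107). MVD read 8.99, 9.02 and 9.10, against 9.30 to 9.44 in controls, and FDPS 9.38, 9.44 and 9.58, against 9.68 to 9.83. SQLE read 11.45, 11.34 and 11.42, against 11.57 to 11.67. All of these arrays were below all control arrays.
EBP, the sterol isomerase, had 9.84, 9.89 and 10.04 with duplex #2, against 10.10 to 10.21 in controls. DHCR7, the reductase of the last step, had 11.07, 11.07 and 11.25, against 11.23 to 11.44, so its highest silenced array reached into the control range. SCD had 11.84, 11.77 and 11.95, against 11.97 to 12.12, and FADS2 had 9.20, 9.13 and 9.44, against 9.50 to 9.73. Differences for these ran from −0.19 to −0.33.

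Counting arrays only, 17 of 28 members were below all 6 control arrays in each of the 3 duplex #2 arrays, against 5.27% of all probe sets tested; for duplex #1 it was 0 of 28, against 3.7%. The 17 held members that were not called, among them HMGCS1 (10.67, 10.65 and 10.56, against 10.72 to 10.93; adjusted p = 0.174), CYP51A1 (10.24, 10.13 and 10.14, against 10.34 to 10.54; adjusted p = 0.065) and FASN (10.18, 10.09 and 10.19, against 10.28 to 10.39; adjusted p = 0.0788, all limma). HMGCS1 was the one member above all controls with duplex #1, at 10.99, 11.10 and 11.12, and was not called (adjusted p = 0.416, limma). The share of all probe sets above all controls with duplex #1 was not counted.
Set directly against duplex #1, duplex #2 had 6 members lower and 0 higher by limma (1.34% and 1.01% of all tested), with 18 lower and 0 higher at an unadjusted p under 0.05. They were HMGCS1 (−0.44), LSS (−0.39), ACSS2 (−0.39), SQLE (−0.30), FASN (−0.27) and ACACA (−0.21). Against NTC cells alone, 2 members, SQLE and FDPS, were lower and 0 higher by limma (1.75% and 0.518% of all tested), with 19 lower and 0 higher at an unadjusted p under 0.05. Of all 21042 probe sets, 3024 against duplex #1 and 2586 against NTC cells were under that unadjusted p, in either direction.

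These calls rest on few arrays. The count of members lowered by duplex #2 against controls without HRG was 0 without duplex #2 vehicle replicate 2, 1 without duplex #2 vehicle replicate 1, 2 without NTC vehicle replicate 1, 3 without NTC vehicle replicate 3, and 4 without parental vehicle replicate 2 or 3. The median difference was steadier and stayed between −0.20 and −0.16 whichever of the 24 arrays was left out.

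**Figure D4:**
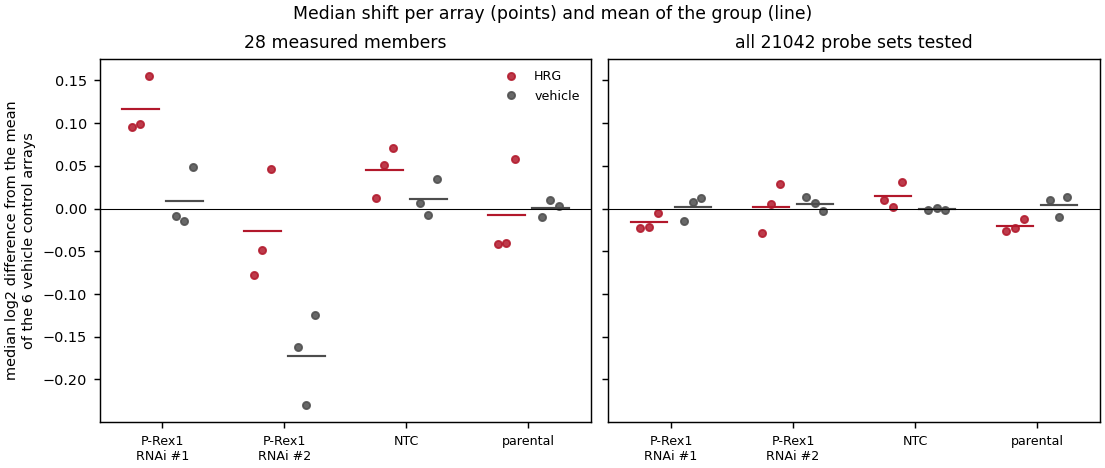
Median log2 difference from the mean of the 6 vehicle control arrays (y axis) in each array, by cell group (x axis), with HRG (red) left of vehicle (grey), over the 28 measured members (left) and over all 21042 probe sets tested (right); lines are means of 3 arrays. Over the members, the duplex #2 vehicle arrays lie at −0.23 to −0.12 and all other vehicle arrays between −0.01 and 0.05.

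With HRG present and duplex #2, FDPS, CYP51A1, ELOVL5, SQLE, MVD and HMGCS1 were lower than in HRG-treated controls and TM7SF2 was higher, so 6 members were lower and 1 higher, against 6.71% and 8.33% of all tested. All of those lowered but ELOVL5 act in sterol synthesis. FDPS read 9.70, 9.76 and 9.93 with duplex #2, against 10.02 to 10.35 in the 6 HRG controls (−0.41 ± 0.07; limma adjusted p = 0.000222). ELOVL5 lay between 11.95 and 11.997, against 12.17 to 12.22, and CYP51A1 10.34, 10.44 and 10.49, against 10.53 to 10.88. Those 3 members were below all HRG controls, against 6.68% of all tested. The count of lower members was 2 without duplex #2 HRG replicate 1, 3 without parental HRG replicate 3 and 3 without NTC HRG replicate 3. The call of TM7SF2 was lost without duplex #2 HRG replicate 3, and 2 members were higher without duplex #2 HRG replicate 2. LUM (−1.01) and COL1A1 (−0.28) of the 6 fibroblast markers were lower in this comparison too, with a summed level of 8.54 to 8.69 with duplex #2, against 8.83 to 9.07 in HRG controls, and ADIPOQ of the 5 adipocyte markers was higher; their part in the result was not tested.

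With HRG and duplex #1, the members called were higher than in HRG-treated controls. SREBF1 read 8.35, 8.23 and 8.37 with HRG, against 7.96 to 8.14 in HRG controls, and FASN 10.45, 10.40 and 10.51, against 10.09 to 10.38. Both were called higher (0.26 and 0.20), so 2 members were higher and 0 lower by limma (3.39% and 1.68% of all tested). At an unadjusted p under 0.05 it was 10 higher and 0 lower, against 4095 of all 21042 probe sets in either direction. With duplex #2 and HRG, SREBF1 and FASN were also above controls (0.16 and 0.05), without a call. The duplexes were not tested against each other with HRG. SREBF2 and ACLY, like SREBF1 and FASN, were above all 6 HRG controls in each duplex #1 array, 4 members in all, against 7.08% of all probe sets tested. Same-numbered HRG arrays of duplex #1 and of both control groups deviated together, and with the replicate number as a block 6 members were higher: SREBF1, FASN, SREBF2, ACSS2, FADS1 and ACAT2, against 5.87% of all probe sets tested in the same fit. Without the block, the count of 2 became 0 without duplex #1 HRG replicate 3, 3 without parental HRG replicate 3, and 1 for most other arrays left out. Of the markers of other cell types, LUM of the 6 fibroblast markers (0.44) and ADIPOQ of the 5 adipocyte markers (0.24) were higher in the same comparison. The part of these markers in the result was not tested.

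**Figure D5:**
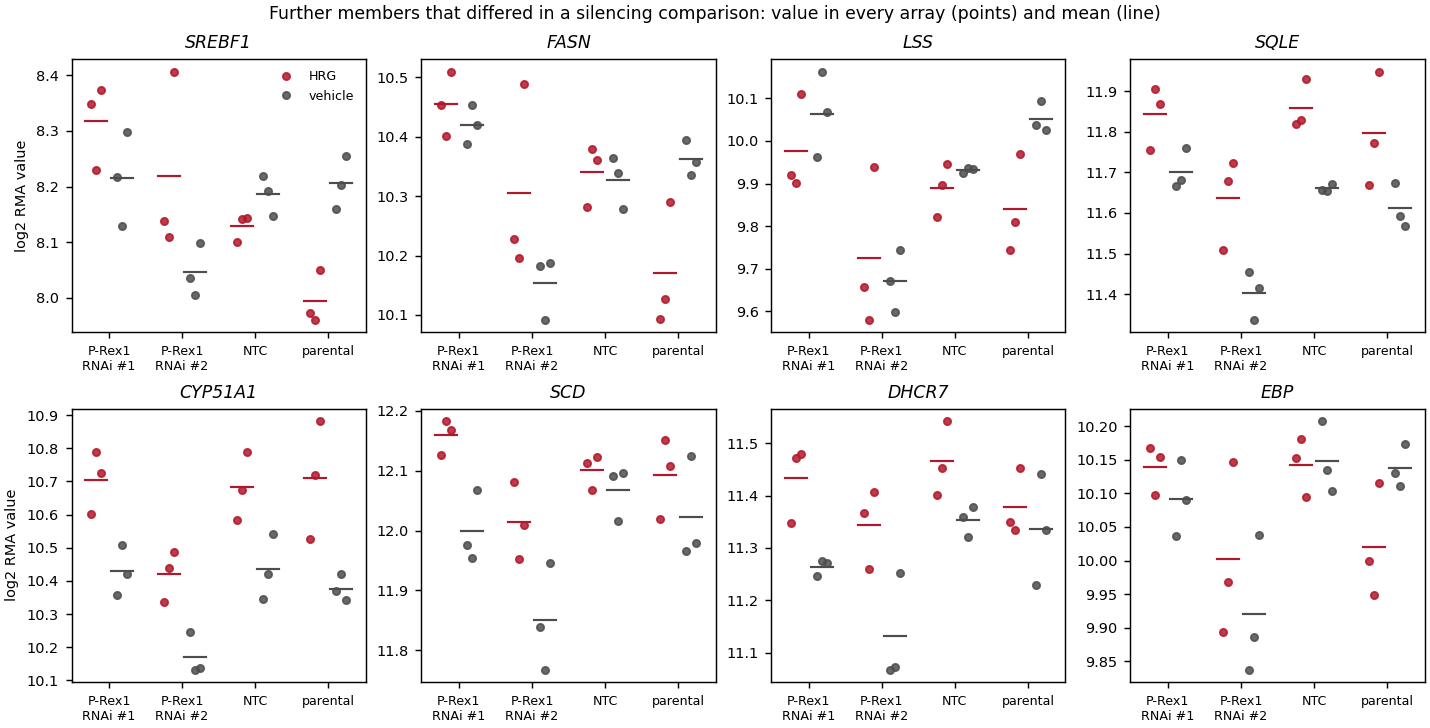
Log2 RMA value (y axis) in every array for the other 8 members called in a comparison of silenced with control cells, by cell group (x axis), with HRG (red) left of vehicle (grey); lines are means of 3 arrays. The grey mean of duplex #2 is the lowest of the 4 cell groups for all 8 members, and the red mean of duplex #1 is the highest for SREBF1 and FASN, among others.

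Of the neighbouring genes of sterol and lipid handling, 23 were measured. In NTC cells 3 (13.0%) were higher and 11 (47.8%) lower, against 13.6% higher and 17.6% lower among all probe sets tested. In parental cells 3 (13.0%) were higher and 11 (47.8%) lower, against 13.5% and 17.3%. The medians were −0.13 and −0.19 in NTC and parental cells, against 0.03 and −0.03 over all probe sets tested. LPIN1, a phosphatidate phosphatase, rose by 1.13 in NTC cells and 0.95 in parental cells, and HSD17B12, a reductase of fatty acid elongation, by 0.51 and 0.66. ACSL1, which activates long-chain fatty acids, fell by 0.85 and 0.83, and GGPS1, which makes geranylgeranyl diphosphate, by 0.72 and 0.57.
Of the genes for proteins that take part in holding, carrying or cleaving the SREBF factors, INSIG2 (−0.69 and −0.41), the protease gene MBTPS1 (−0.42 and −0.40) and the escort protein gene SCAP (−0.23 and −0.35) were called lower in NTC and in parental cells. A second protease gene, MBTPS2, was called lower in NTC cells (−0.18, adjusted p = 0.00589) and not in parental cells (−0.07, adjusted p = 0.314, limma). The sterol exporters ABCA1 (−0.37 and −0.39) and ABCG1 (−0.32 and −0.39) and the nuclear receptor gene NR1H3 (−0.24 and −0.45) were lower too. With duplex #2 and no HRG, 4 of these 23 genes (17.4%) were lower than in controls and 0 higher by limma, against 2.59% lower and 0.756% higher among all probe sets tested, with 10 lower and 1 higher at an unadjusted p under 0.05. The 4 were LPIN1 (−0.51), ABCG1 (−0.24), SLC25A1, the mitochondrial citrate carrier (−0.21), and SCAP (−0.19). At an unadjusted p under 0.05, 2885 of all 21042 probe sets were higher or lower in this comparison.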

How the data were processed

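The authors hybridised labelled cDNA of each sample to an Affymetrix Human Gene ST array and deposited log2 values made by RMA, which corrects background, quantile normalises and summarises probes; the sources used here do not state a software version. Nothing was normalised again. Of 28536 probe sets, 19292 had 1 symbol in the platform annotation, 1750 several and 7494 none, and the 21042 with a symbol were tested. Each measured member has 1 probe set of its own. All 24 arrays were fitted with 8 group means in limma 3.58.1 (R 4.3.3), with no block, and p-values were Benjamini-Hochberg adjusted over the 21042; calls used adjusted p under 0.05. The script was tested on simulated data. The rule gave all 31 genes by name, with values per array for the 8 largest HRG effects and for calls in silencing comparisons. The members, gene lists and motifs were chosen with earlier results of these data known, and the comparisons of duplex #2 with duplex #1 and with NTC, of NTC with parental responses, and of both controls together were added after seeing the data.

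Same-numbered arrays were checked for shared deviations from their group means. The correlation was above 0.1 in all 3 pairs of HRG and vehicle arrays in parental cells (0.12 to 0.25) and with duplex #2 (0.22 to 0.39). It was also above 0.1 for HRG arrays of duplex #1 with those of NTC (0.12 to 0.44) and parental cells (0.12 to 0.34). The same held for vehicle arrays of duplex #2 with those of NTC (0.14 to 0.22), a comparison for which the blocked fit is not given here. HRG arrays of duplex #2 with those of parental cells were above 0.1 in all 3 pairs as well (0.15 to 0.31). In the other comparisons at least 1 pair was not above 0.1. The pairing thus comes from the data, since the labels give numbers only. Precision is limited by the number of arrays. Alternatives were fits with a replicate block, a mean-variance trend, robust variances, array weights, other normalisations, other sets of probe sets or arrays, other fold thresholds and Rank Products, the methods' test.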

Additional observations from a re-analysis of the deposited data

Results flagged for a closer look

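The HRG effect on SREBF1 differed between cells with P-Rex1 RNAi #2 and control cells by 0.306 on the log2 scale in the interaction test (limma adjusted p = 0.0348). The adjusted p ranged from 0.00927 to 0.119 over 34 alternatives, and the difference was called in 23 of them. With duplex #1 the same difference was 0.24 and was not called.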

How the results depend on the processing

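Of 2142 refits of single called genes, 1903 kept their call and 239 kept the direction without it; no called difference changed sign. With the replicate block, 15 members were higher with HRG in duplex #2 cells, 13 lower with duplex #2 without HRG, 6 higher with duplex #1 and 2 higher with duplex #2 among HRG-treated cells, and 1 (duplex #1) and 3 (duplex #2) had a larger HRG effect than controls; the block moved no other count by over 1.5 times. Array weights gave 4 members lower with HRG in NTC cells, 1 lower with HRG in duplex #2 cells, 14 lower with duplex #2 without HRG, 7 higher with duplex #1 with HRG and 0 higher with duplex #2 with HRG. A variance trend gave 13 lower with duplex #2 without HRG, 4 higher with duplex #1 with HRG and 1 with a lower HRG effect with duplex #2. A second quantile step gave 1 lower with HRG in NTC cells, 0 for the changed HRG effect with duplex #2, 0 higher with duplex #1 with HRG and 1 member separated downwards by HRG. Fitting only the groups compared gave 5 higher with HRG in duplex #2 cells, 1 higher with duplex #1 with HRG, and 0 higher and 3 lower with duplex #2 with HRG. Testing all probe sets gave 1 higher with duplex #1 with HRG. Without 4 arrays (parental vehicle 3, NTC HRG 3, duplex #1 vehicle 2 and duplex #2 HRG 3), 5 were higher and 1 lower with HRG in duplex #2 cells, 0 had a changed HRG effect with duplex #2, and 0 were higher with duplex #2 with HRG. At 1.3-fold, 4 members were higher and 1 lower with HRG in parental cells, 4 higher in NTC cells, 4 with duplex #1 and 3 with duplex #2; at 2-fold 0 were higher in parental, duplex #1 or duplex #2 cells. Rank Products called 0 members in NTC cells and 1 in parental cells. The cause of these changes was not tested.

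Leaving out 1 array in turn gave, for HRG, 6 to 10 higher and 1 to 2 lower members in NTC cells, 6 to 8 and 2 to 8 in parental cells, 8 to 12 higher and 1 lower with duplex #1, and 4 to 9 higher and 0 to 1 lower with duplex #2. The changed HRG effect with duplex #2 had 0 to 2 higher members. Against controls, duplex #2 without HRG had 0 to 10 lower members, duplex #1 with HRG 0 to 3 higher, and duplex #2 with HRG 0 to 2 higher and 2 to 6 lower. Separation of the control arrays by HRG gave 6 to 8 members upwards and 4 to 6 downwards. The choice of the dimmest probe set of a member was not run, because each has 1.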
